A study of Mus musculus with 8 samples.

Results

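The genes described here are 37 genes of the germline and of meiosis. Values are RPKM (reads scaled by gene length and by the mapped reads of the library), with a further scaling that is not described. The 37 genes were chosen by name out of the 24505 genes with a value in each library. They comprise regulators of germ-cell transcription, germ-cell RNA-binding proteins, the piRNA pathway, the synaptonemal complex, meiotic cohesin and axis proteins, recombination proteins and a few other germ-cell proteins. All 37 were found, and 24 of them reached at least 1 RPKM in at least 2 of the 8 libraries and were tested. The other 13 stayed below that level and were not tested.

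Transcripts were measured by RNA sequencing in mouse embryonic stem cells of a line with a conditional allele of Ino80, whose protein is the motor subunit of the INO80 remodeller of nucleosomes. Every group comes from this line, and the labels do not say whether it is 1 clone. The 4 groups hold 2 libraries each, labelled knockout or wild type, in each of 2 states of pluripotency. Naive cells were kept on gelatin with the MEK inhibitor PD0325901, the GSK3 inhibitor CHIR99021 and LIF, and primed cells on fibronectin with FGF-2, Activin A and the tankyrase inhibitor XAV-939. The protocol given for all samples deletes the gene with 100 nM 4-OHT over 2 days and allows 2 further days of culture. The sources used here do not state whether the wild-type cells also received 4-OHT. No label describes the paired libraries of a group as independent cultures. The p-values then reflect only how far the libraries scatter, and that scatter may be technical. As deposited it was pooled over the 4 groups and over genes of similar level. The depth of the libraries is unknown.

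Germline genes are silent in most somatic cells. In mouse embryonic stem cells many of them are held down by DNA methylation and by PRC1.6, a Polycomb complex that reaches DNA through the factors MGA with MAX, which bind the E-box CACGTG, and E2F6. Cells grown with MEK and GSK3 inhibitors are known for low DNA methylation and for transcripts of some germline genes. In germ cells, retinoic acid raises Stra8, which opens meiosis, and the cohesin, axis, synaptonemal and recombination proteins then pair and join the homologous chromosomes, while piRNA proteins silence transposons.

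The targeted gene was not lower in the naive libraries labelled knockout. Ino80 stood at 15.9 and 15.1 RPKM there and at 17.0 and 14.5 RPKM in wild type, groups that overlap. In the primed state it stood at 9.12 and 8.74 RPKM against 15.9 and 20.3 RPKM. The log2 differences, knockout minus wild type on the log2(RPKM + 1) scale, were -0.020 ± 0.18 (SE, limma adjusted p = 0.98) and -0.93 ± 0.18 (adjusted p = 2e-06). The primed value was -0.26 after quantile normalization, which gives every library the same distribution of values. Since exons outside the deleted part also count towards a gene's RPKM, this is a weak check, and the groups are called knockout below only as the labels name them. The pluripotency list Pou5f1, Nanog, Sox2, Utf1, Zfp42, Klf4 and Esrrb summed to 932 RPKM or more in every library. Pou5f1 led this sum, which hides differences between the primed groups. In primed knockout Nanog (-1.63), Esrrb (-1.51), Klf4 (-0.87), Zfp42 (-0.78) and Utf1 (-0.22) were called lower as deposited. Sox2 (0.35) and Pou5f1 (0.18) were called higher. Of all tested genes 59.3% were called lower there and 4.16% higher. Fgf5, Otx2, Pou3f1 and Dnmt3b, markers of primed cells, summed to 17.3 to 22.7 RPKM in naive and 206 to 235 RPKM in primed libraries. Dnmt3b led these sums. In primed knockout Fgf5 was called higher (1.65) and Pou3f1 lower (-0.93), and Otx2 (-0.26) and Dnmt3b (-0.084) were not called. Of 8 markers of testis somatic cells, the highest group mean was 4.73 RPKM (Star).

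Markers of fibroblasts were low in the naive state and lower in primed knockout than in primed wild type. Of 8 fibroblast genes (Col1a1, Col1a2, Col3a1, Thy1, Pdgfrb, Lum, Dcn and Twist2), the sum was 1.22 to 2.24 RPKM in naive knockout and 2.10 to 4.58 RPKM in naive wild type. Of these genes Pdgfrb was called lower in naive knockout, at 0.714 and 0.510 against 2.32 and 1.12 RPKM (-0.72 ± 0.25, adjusted p = 0.037). The sum was 15.8 to 16.8 RPKM in primed knockout and 39.0 to 53.8 RPKM in primed wild type, led by Col3a1, with Lum at a group mean of at most 0.195 RPKM. Of all tested genes 59.3% were called lower there. Primed knockout to wild-type ratios were 0.452 (Col1a1), 0.421 (Thy1), 0.232 (Col1a2) and 0.220 (Dcn), beside a median of 0.524 for genes of 1 to 10 RPKM. Col3a1 was at 0.389, beside 0.689 for 10 to 100 RPKM. Lum (0.257), Twist2 (0.201) and Pdgfrb (0.141) stood beside 0.408 for 0.1 to 1 RPKM. The 7 genes of the 2-cell-like state, a rare state that also expresses early embryonic genes, summed to 47.6 to 49.4 RPKM in naive knockout, to 38.8 to 51.6 RPKM in naive wild type and to at most 0.545 RPKM in primed libraries. The part of these cells in the results below was not tested.

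Promoter sequences from RefSeq (build GRCm38.p6, 250 bases before to 50 after the start) were matched by symbol for 31 of the 37 genes, in 37 windows. The E-box CACGTG, searched on both strands (it reads the same on each), lay in the windows of 14 of these 31 genes (45.2%), and in those of 2187 of 27025 genes in all (8.09%). The E2F core TCCCGC, on either strand (GCGGGA on the other), lay in 12 of 31 (38.7%) against 22.0% of all genes. The median window held 18 CG dinucleotides, against 7 over all windows. Among windows with at least 10 CG, 48.5% of those of germline genes and 10.9% of all held the E-box, while the E2F core was about as frequent in both (42.4% and 40.3%). A match is a description of the letters and not of binding.

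Sequences are printed for 6 windows because the results below turn on their genes. Sohlh2, Syce1, Hormad2 and Mov10l1 were lower in naive knockout, Dmc1 was lower in primed knockout, and Hormad1 holds both motifs and did not pass the test in either state. Each sequence reads 5′ to 3′ along the gene's strand, with E-boxes and E2F cores in capitals, and stops before the first annotated exon base.
Sohlh2: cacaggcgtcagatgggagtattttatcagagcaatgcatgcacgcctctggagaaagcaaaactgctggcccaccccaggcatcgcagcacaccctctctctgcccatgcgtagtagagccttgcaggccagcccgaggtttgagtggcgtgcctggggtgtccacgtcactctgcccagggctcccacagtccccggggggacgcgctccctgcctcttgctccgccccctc
Syce1: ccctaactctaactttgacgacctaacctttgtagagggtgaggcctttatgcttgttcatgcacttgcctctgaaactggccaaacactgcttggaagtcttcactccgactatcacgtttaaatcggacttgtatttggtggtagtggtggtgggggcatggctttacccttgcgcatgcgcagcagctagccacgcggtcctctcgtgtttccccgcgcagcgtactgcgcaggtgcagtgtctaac
Hormad2: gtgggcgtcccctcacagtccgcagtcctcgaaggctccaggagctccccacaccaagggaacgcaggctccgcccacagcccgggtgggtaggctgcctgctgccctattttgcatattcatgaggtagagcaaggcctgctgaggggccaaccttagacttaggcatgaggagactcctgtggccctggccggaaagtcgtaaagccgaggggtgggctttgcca
Mov10l1: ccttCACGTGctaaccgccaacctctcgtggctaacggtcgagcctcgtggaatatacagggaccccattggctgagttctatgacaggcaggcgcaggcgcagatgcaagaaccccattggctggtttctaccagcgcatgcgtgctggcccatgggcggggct
Dmc1: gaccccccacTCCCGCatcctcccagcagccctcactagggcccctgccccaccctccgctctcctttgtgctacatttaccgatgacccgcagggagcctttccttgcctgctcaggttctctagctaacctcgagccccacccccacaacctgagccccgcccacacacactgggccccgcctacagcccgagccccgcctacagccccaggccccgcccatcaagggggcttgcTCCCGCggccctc
Hormad1: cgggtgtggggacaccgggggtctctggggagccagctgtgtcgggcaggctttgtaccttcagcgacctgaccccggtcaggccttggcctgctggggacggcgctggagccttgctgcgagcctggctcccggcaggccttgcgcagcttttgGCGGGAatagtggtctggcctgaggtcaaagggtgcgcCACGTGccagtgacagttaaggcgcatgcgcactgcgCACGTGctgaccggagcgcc

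The Sohlh2 sequence lies at chr3:55181794-55182027, plus strand, that of Syce1 at chr7:140787855-140788104, minus strand, and that of Hormad2 at chr11:4441106-4441332, minus strand. The Mov10l1 sequence lies at chr15:88982744-88982908, plus strand, that of Dmc1 at chr15:79605110-79605359, minus strand, and that of Hormad1 at chr3:95559427-95559676, plus strand. The printed Sohlh2, Syce1 and Hormad2 sequences and the whole Stra8 window hold neither motif, Mov10l1 holds 1 E-box, Dmc1 holds 2 E2F cores, and Hormad1 holds 2 E-boxes and 1 E2F core. The windows of Dazl, Asz1 and Tdrd12 also hold neither motif, and these genes were not called in the naive state as deposited. Whether a motif goes with the knockout effect was not tested. An annotated exon covers the first base of the Stra8 window, so that window is not printed. How much of it lies in exons was not measured, and its lack of a motif may say little of sequence outside exons.

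Most of these genes were measurable in the naive state and near the bottom of the scale in the primed state. In naive cells 26 of 37 had a mean of at least 1 RPKM in wild type and 22 in knockout. The numbers in primed cells were 7 and 4. The median of the 37 group means was 2.95 RPKM in naive wild type, above the 0.848 RPKM of all genes, and 0.120 RPKM in primed wild type, below the 1.17 RPKM of all genes. Because the states may have been scaled apart, levels were not tested between them. The order of the naive levels was led by Dazl, at a mean of 76.1 ± 6.39 RPKM (SD, n = 2) in wild type, followed by Syce2 at 37.6 ± 0.518, Rec8 at 31.1 ± 1.38 and Stra8 at 28.0 ± 2.28 RPKM. Rec8 and Stra8, neighbours in this order, differed by less than the sum of their SDs. In primed wild type the order was Syce2 at 47.3 ± 4.83, Mybl1 at 10.8 ± 2.40, Stag3 at 10.6 ± 2.51, Dmc1 at 8.84 ± 2.85 and Sycp1 at 7.67 ± 2.02 RPKM, and the last 4 of these overlapped in their spread.

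In the naive state, the libraries labelled knockout had less RNA of the meiotic entry factor Stra8, the germ-cell factor Sohlh2, the synaptonemal protein Syce1, the axis protein Hormad2 and the piRNA helicase Mov10l1, and more of the transcription factor Mybl1. These 5 lower and 1 higher were the only calls among the 24 tested genes as deposited. Over all 13428 tested genes 5.85% were called lower and 6.08% higher. The germline genes were chosen with earlier results of these data known. Their larger share lower and similar share higher are therefore no test of germline genes as a class. The count lower was 3 without either naive knockout library, and the count higher was 0 without either of them and 4 without naive wild-type replicate 1. The median log2 difference of the 24 was -0.22, beside 0.049 over all tested genes, and 17 of the 24 values were negative. After quantile normalization, which left a smaller spread between replicates, 14 of the 24 were called lower and 5 higher, beside 27.2% and 32.0% of all genes. The groups did not overlap, with knockout lower, in 11 of the 24 (21.0% of all tested genes), and with knockout higher in 5 of 24 (31.2%). Naive wild-type replicate 1 read above replicate 2 by a median of 1.58 times among all genes of 1 to 10 RPKM and 1.11 times among those of 10 to 100 RPKM, a shift that touches every weakly expressed gene below. In bulk RNA, fewer cells that express a gene and less RNA per cell cannot be told apart.

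**Figure D1:**
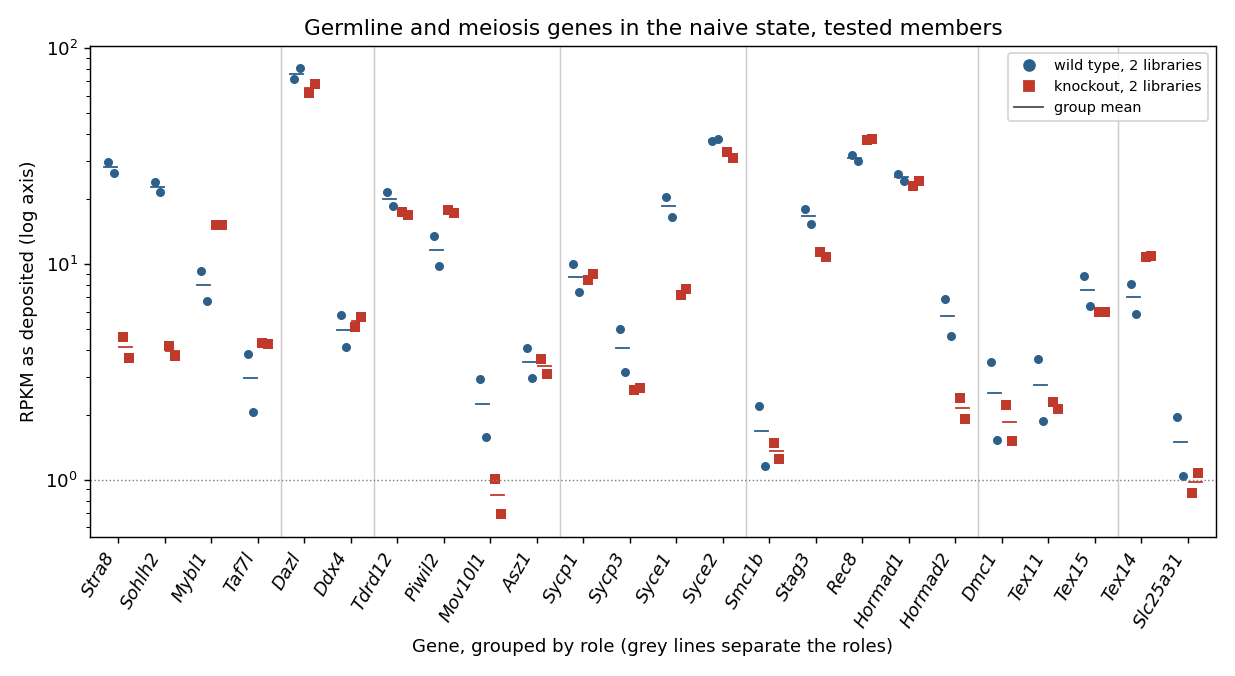
RPKM of the tested germline and meiosis genes in each naive library, on a log axis, with circles for wild-type libraries, squares for knockout libraries and short lines for the group means. Stra8 and Sohlh2 show the widest gaps, with knockout at 3.67 to 4.59 RPKM and wild type at 21.6 to 29.6 RPKM across both genes.

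Among the regulators of germ-cell transcription, Stra8 and Sohlh2 fell and Mybl1 rose. Stra8 stood at 4.59 and 3.67 RPKM in naive knockout and at 29.6 and 26.4 RPKM in wild type. Both knockout libraries lay far below both wild-type libraries, and the mean was 6.78-fold lower (log2 difference -2.50 ± 0.28, adjusted p = 2.6e-16). Sohlh2, a basic helix-loop-helix factor of spermatogonia and oocytes, stood at 4.18 and 3.72 against 23.9 and 21.6 RPKM. Its groups were as clearly apart, with a mean 5.76-fold lower (-2.26 ± 0.28, adjusted p = 1.7e-13). Pairing any knockout with any wild-type library gave a ratio of 5.75 to 8.06 for Stra8 and 5.16 to 6.43 for Sohlh2.

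Mybl1, the A-MYB factor that drives pachytene genes and piRNA precursors in the testis, stood at 15.1 and 15.1 RPKM in naive knockout against 9.23 and 6.71 RPKM in wild type. Both knockout libraries were above both wild-type libraries, 1.89-fold in the mean (0.86 ± 0.19, adjusted p = 0.00023). That call ended without either naive knockout library (adjusted p = 0.06 without replicate 1 and 0.058 without replicate 2). Taf7l, a germ-cell subunit of the TFIID family, stood at 4.32 and 4.25 against 3.83 and 2.07 RPKM and did not pass as deposited (0.46 ± 0.26, adjusted p = 0.3). It was called higher after quantile normalization (0.43 ± 0.071, adjusted p = 0.0012).

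The germ-cell RNA-binding proteins Dazl and Ddx4 did not pass as deposited. Dazl, a translational regulator and the most abundant transcript of the 37, stood at 62.0 and 68.2 RPKM in knockout against 71.6 and 80.6 RPKM in wild type, a ratio of 0.855. The knockout libraries were both lower, by 1.05-fold to 1.30-fold for any pair of libraries, and the difference was -0.22 ± 0.24 (adjusted p = 0.66), or -0.22 ± 0.060 and called after quantile normalization (adjusted p = 0.015). Ddx4, the VASA helicase, stood at 5.12 and 5.69 against 5.79 and 4.12 RPKM, groups that overlap.

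In the piRNA pathway, which makes the small RNAs that silence transposons in germ cells, Mov10l1 fell and the other tested members did not pass as deposited. Mov10l1, a helicase needed to process piRNA precursors, stood at 1.00 and 0.690 RPKM in knockout against 2.91 and 1.58 RPKM in wild type. Its groups did not overlap and the mean was 2.65-fold lower (-0.79 ± 0.24, adjusted p = 0.014), at a level where the wild-type replicates themselves were apart, and the call ended in 7 of 16 alternative settings, 5 of them with 1 library left out (adjusted p from 0.072 without either primed knockout library and 0.075 without naive wild-type replicate 1 to 0.12 and 0.42 without naive knockout replicate 1 or 2). Piwil2, the MILI protein that loads piRNAs, stood at 17.8 and 17.2 against 13.5 and 9.76 RPKM, higher in both knockout libraries by 1.51-fold in the mean (0.57 ± 0.28, adjusted p = 0.2; after quantile normalization 0.50 and called, adjusted p = 0.00041). Tdrd12, a helicase of secondary piRNA production, stood at 17.3 and 16.9 against 21.6 and 18.5 RPKM, a ratio of 0.853 (-0.21 ± 0.27, adjusted p = 0.73; after quantile normalization -0.26 and called, adjusted p = 0.006). Asz1 lay between 2.97 and 4.08 RPKM in the 4 naive libraries and was not called under either scaling.

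Of the synaptonemal complex, the protein ladder that zips homologous chromosomes together, Syce1 fell. Syce1, a protein of its central element, stood at 7.17 and 7.62 RPKM in naive knockout against 20.5 and 16.5 RPKM in wild type. The libraries of the groups were well apart, and the mean was 2.50-fold lower (-1.21 ± 0.28, adjusted p = 0.00044). The call ended with a pseudocount of 0.1 (adjusted p = 0.053) and without naive knockout replicate 1 (adjusted p = 0.07). Syce2, the partner of the central element, stood at 33.0 and 30.8 against 37.2 and 37.9 RPKM, a ratio of 0.849 that was not called as deposited (-0.23 ± 0.13, adjusted p = 0.3) and was after quantile normalization (-0.26, adjusted p = 0.0034).

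Sycp3, of the lateral element, stood at 2.62 and 2.66 RPKM against 5.00 and 3.17 RPKM, lower in both knockout libraries (-0.46 ± 0.27, adjusted p = 0.31; after quantile normalization -0.50 and called, adjusted p = 0.0025). Its exons overlap those of the antisense gene Chpt1, and no source used here states whether counting used strand, so its values are uncertain. Sycp1, the transverse filament, stood at 8.46 and 8.95 against 9.96 and 7.38 RPKM, with a ratio of 1.00 and overlapping groups.

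Among the meiotic cohesin and axis proteins, which organise chromosomes into loops before recombination, Hormad2 fell. Hormad2, which monitors unsynapsed axes, stood at 2.39 and 1.90 RPKM in naive knockout against 6.87 and 4.64 RPKM in wild type. Knockout was lower in both libraries, 2.68-fold in the mean (-1.09 ± 0.26, adjusted p = 0.00083). The call ended without naive knockout replicate 2 (adjusted p = 0.13) and with each state fitted alone (adjusted p = 0.053). Its relative Hormad1 stood at 23.0 and 24.3 against 26.0 and 24.3 RPKM, a ratio of 0.942, and was not called under either scaling.

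The cohesin subunit Stag3 stood at 11.3 and 10.7 RPKM against 18.0 and 15.3 RPKM. Both knockout libraries were below wild type, 1.51-fold in the mean, without passing as deposited (-0.55 ± 0.23, adjusted p = 0.1); after quantile normalization the difference was -0.60 and was called (adjusted p = 9.2e-06). Rec8, the cohesin kleisin of meiosis, stood at 37.4 and 37.8 against 32.0 and 30.1 RPKM, higher in both knockout libraries by 1.21-fold (0.27 ± 0.23, adjusted p = 0.55; after quantile normalization 0.22 and called, adjusted p = 0.023). Smc1b, their partner, stood at 1.47 and 1.24 against 2.19 and 1.16 RPKM, and its groups overlap. The cohesin subunits thus did not share a direction in the naive state.

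No recombination gene passed in the naive state as deposited. Dmc1, the meiotic strand-exchange recombinase, stood at 2.21 and 1.50 RPKM against 3.50 and 1.53 RPKM, with overlapping groups (-0.25 ± 0.28, adjusted p = 0.68). Tex15, needed for repair of meiotic breaks, stood at 5.95 and 5.97 against 8.79 and 6.37 RPKM, lower in both knockout libraries (-0.29 ± 0.28, adjusted p = 0.62; after quantile normalization -0.34 and called, adjusted p = 0.00086). Tex11, a crossover protein, stood at 2.30 and 2.13 against 3.61 and 1.88 RPKM, and its groups overlap.

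Of the other germ-cell proteins, Tex14, which keeps germ cells joined by bridges, stood at 10.8 and 10.8 RPKM against 8.10 and 5.88 RPKM. It was higher in both knockout libraries, 1.55-fold in the mean (0.58 ± 0.28, adjusted p = 0.18; after quantile normalization 0.50 and called, adjusted p = 0.00017). Slc25a31, the ADP/ATP carrier of germ cells, stood at 0.869 and 1.08 against 1.96 and 1.04 RPKM, with overlapping groups. Smc1b, Tex11 and Slc25a31 were called lower after quantile normalization (-0.18, -0.21 and -0.34, with adjusted p = 0.029, 0.025 and 0.018) although their deposited groups overlap.

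**Figure D2:**
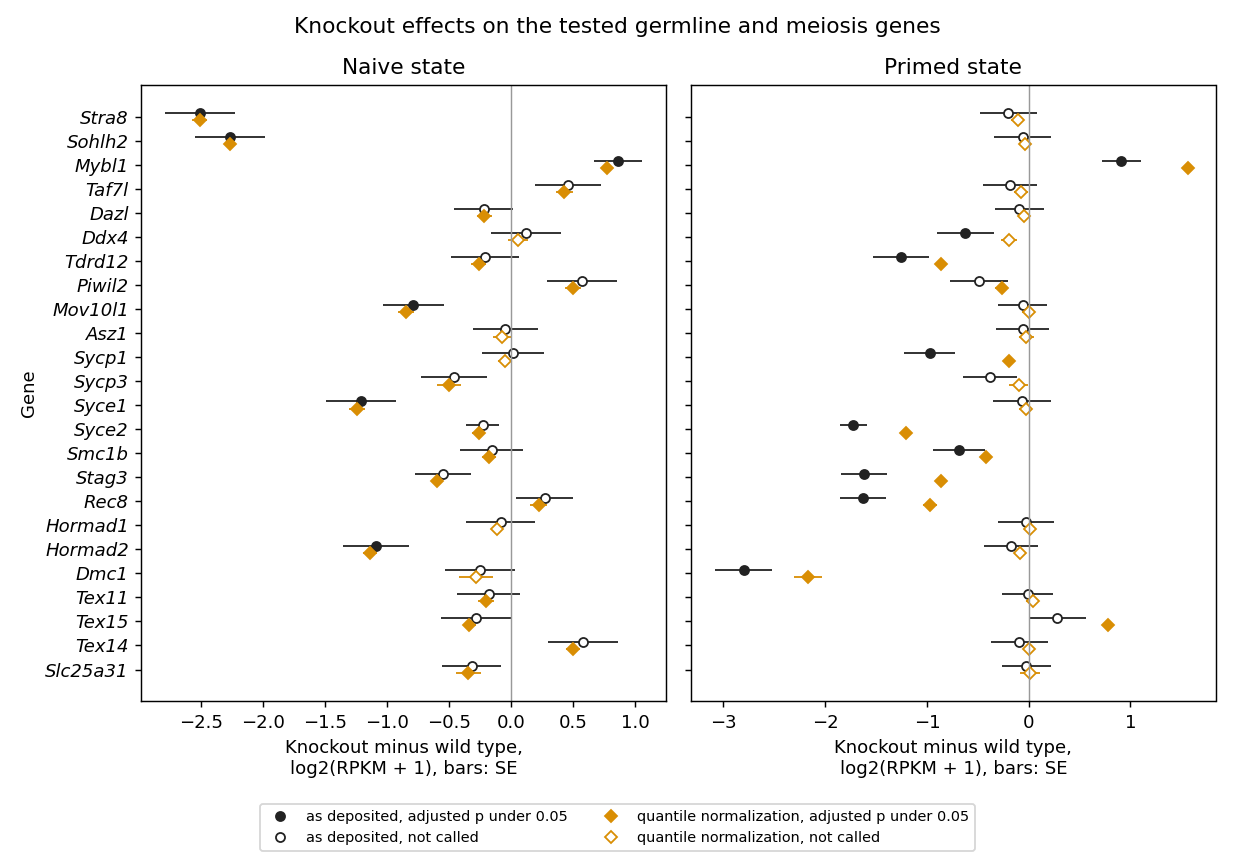
Log2 differences, knockout minus wild type on the log2(RPKM + 1) scale, for the 24 tested genes in the naive (left) and primed (right) state, with bars for the SE. Circles are the values as deposited and diamonds those after quantile normalization, filled where adjusted p was under 0.05; Stra8 and Sohlh2 lie near -2.5 and -2.3 in the naive panel under both scalings, and Dmc1 lies lowest in the primed panel.

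In the primed state the genes of the recombinase Dmc1, the synaptonemal proteins Syce2 and Sycp1 and the cohesin subunits Rec8, Stag3 and Smc1b were among those that fell, and Mybl1 again rose. As deposited 8 of the 24 were called lower (Dmc1, Syce2, Rec8, Stag3, Tdrd12, Sycp1, Smc1b and Ddx4) and 1 higher. These counts stand beside 59.3% and 4.16% of all tested genes, because the deposited primed knockout values were lower across the transcriptome, with a median of -0.53 over all genes and -0.18 over the 24. The share of germline genes called lower was thus below that of all genes, and most of the 24 stood under 1 RPKM in every primed library, where log2(RPKM + 1) leaves little room to fall. Knockout was lower without overlap in 20 of the 24, beside 76.4% of all tested genes, and higher in 2, beside 6.77%. After quantile normalization 8 were called lower and 2 higher, beside 35.1% and 39.0%. With median centring, which sets only the library medians equal, 6 were called lower and 15 higher. The medians were then 0.52 over the 24 and 0.16 over all genes, and the share of all genes called was not counted. Centring shifts every gene of a library by the same amount, and genes near 0 RPKM were among the 15, such as Stra8 (0.50) and Sohlh2 (0.64). As deposited the fall was deepest among weakly expressed genes. All genes of under 0.1 RPKM had a median knockout to wild-type ratio (of geometric means) of 0.347, those of 0.1 to 1 RPKM one of 0.408, those of 1 to 10 RPKM one of 0.524 and those of 10 to 100 RPKM one of 0.689. The primed wild-type replicates differed along the same gradient, with replicate 2 above replicate 1 by a median of 1.98, 1.78, 1.42 and 1.23 times in these 4 ranges. Each primed ratio below is therefore to be set against the ratio of its level.

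**Figure D3:**
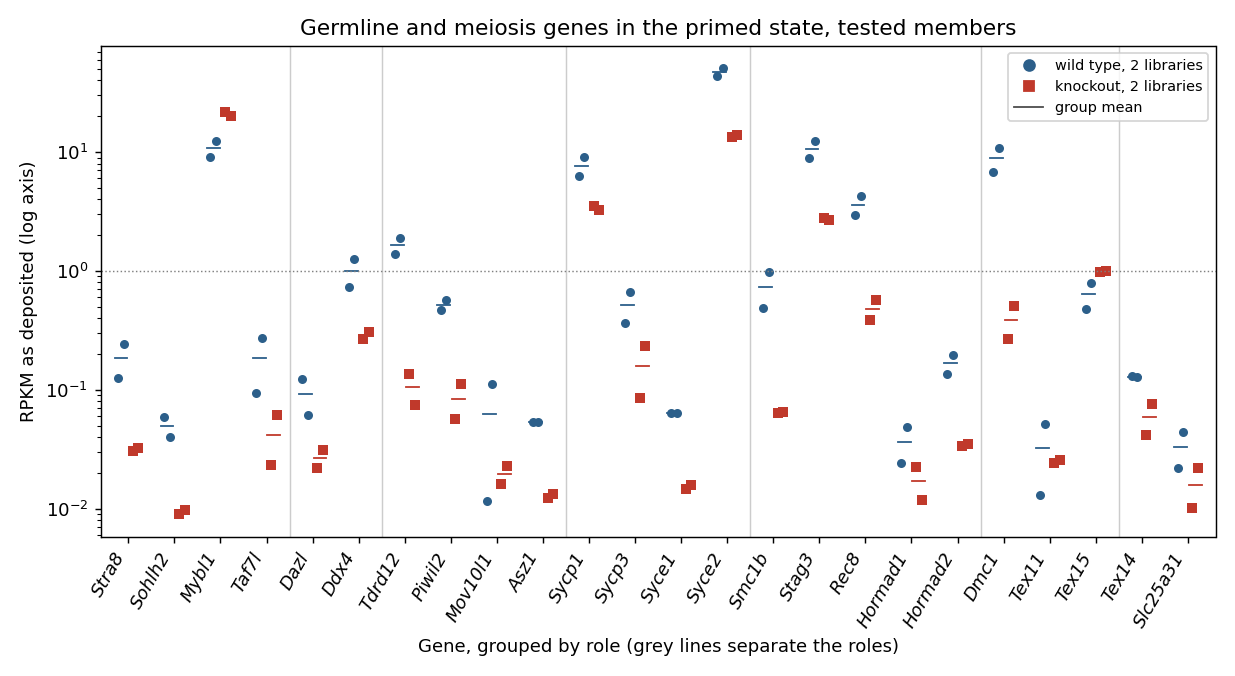
RPKM in each primed library, on a log axis, of the tested genes, with circles for wild-type libraries, squares for knockout libraries and short lines for the group means. Dmc1 shows a wide gap, at 0.270 and 0.505 RPKM in knockout and 6.82 and 10.8 RPKM in wild type, Mybl1 lies higher in knockout, and many other genes lie under 1 RPKM in all 4 libraries.

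Dmc1 had the largest primed change of the 24. It stood at 0.270 and 0.505 RPKM in knockout against 6.82 and 10.8 RPKM in wild type, a mean 22.8-fold lower. The ratio for any pair of libraries lay between 13.5 and 40.2, and the difference was -2.80 ± 0.28 as deposited (adjusted p = 7.9e-22) and -2.17 ± 0.14 after quantile normalization (adjusted p = 2.6e-06). Among the cohesin subunits, Rec8 stood at 0.389 and 0.570 against 2.95 and 4.28 RPKM, 7.54-fold lower (-1.63 ± 0.23, adjusted p = 1.5e-11; after quantile normalization -0.97, adjusted p = 4.6e-06). Stag3 stood at 2.80 and 2.68 against 8.84 and 12.4 RPKM, 3.87-fold lower (-1.62 ± 0.23, adjusted p = 1.4e-11; after quantile normalization -0.86, adjusted p = 3.8e-07). Smc1b stood at 0.0640 and 0.0652 against 0.484 and 0.974 RPKM, all below 1 RPKM (-0.68 ± 0.25, adjusted p = 0.013; after quantile normalization -0.42, adjusted p = 0.00026). All 3 subunits were thus lower in the primed knockout libraries under both scalings, though with median centring Smc1b stood at 0.0097 and was not called, and its call as deposited ended without either primed knockout library (adjusted p = 0.12 and 0.13) or primed wild-type replicate 2 (0.19).

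Of the synaptonemal genes, Syce2 stood at 13.3 and 13.8 RPKM in primed knockout against 43.9 and 50.7 RPKM in wild type. Of the 24 tested germline genes only Syce2 and Mybl1 had a mean of at least 10 RPKM in both primed groups. Syce2 was 3.48-fold lower (-1.72 ± 0.13, limma adjusted p = 5.2e-36), beside a ratio of 0.689 for all genes of its level. After quantile normalization its difference was -1.21 (adjusted p = 3.6e-07). Sycp1 stood at 3.49 and 3.25 against 6.25 and 9.10 RPKM, 2.28-fold lower (-0.97 ± 0.25, adjusted p = 0.00031). Its ratio of 0.439 lay near the 0.524 of all genes of its level, and after quantile normalization the difference was -0.19 (adjusted p = 0.011).

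In the piRNA group Tdrd12 stood at 0.135 and 0.0745 RPKM in primed knockout against 1.39 and 1.90 RPKM, 15.7-fold lower in the mean (-1.25 ± 0.27, adjusted p = 1.6e-05; after quantile normalization -0.86, adjusted p = 4.1e-06). Piwil2 stood at 0.0570 and 0.112 against 0.470 and 0.568 RPKM and was called only after quantile normalization (-0.27, adjusted p = 0.0072), and with median centring its sign turned (0.21). Ddx4 stood at 0.270 and 0.305 against 0.738 and 1.26 RPKM (-0.62 ± 0.28, adjusted p = 0.042). Its call ended when any of 5 single libraries was left out (adjusted p up to 0.28, without primed wild-type replicate 2). It was not kept after quantile normalization (-0.19, adjusted p = 0.054), and its sign turned with median centring (0.072).

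Mybl1 stood at 21.7 and 20.2 RPKM in primed knockout against 9.07 and 12.5 RPKM, 1.94-fold higher, while all genes of its level had a ratio of 0.689. The difference was 0.91 ± 0.19 as deposited (adjusted p = 9.5e-06) and 1.57 ± 0.032 after quantile normalization (adjusted p = 1.1e-08). Tex15 stood at 0.977 and 0.995 against 0.480 and 0.799 RPKM, higher in both knockout libraries but under 1 RPKM, and was called higher only after quantile normalization (0.78, adjusted p = 3.5e-06; as deposited 0.28 ± 0.28, adjusted p = 0.38).

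The genes that led in the naive state were close to the bottom of the scale in primed cells. Stra8 stood at 0.0308 and 0.0322 RPKM in knockout and 0.126 and 0.243 RPKM in wild type. Sohlh2 was at most 0.0594 RPKM, Syce1 at most 0.0636, Hormad2 at most 0.198 and Mov10l1 at most 0.113 RPKM in any primed library. Dazl, at 62.0 RPKM or more in naive libraries, was at most 0.124 RPKM in primed ones, and Hormad1 at most 0.0486 RPKM. Taf7l, Sycp3, Tex11, Tex14, Slc25a31 and Asz1 also stayed at or under 0.667 RPKM. None of these was called in the primed comparison as deposited or after quantile normalization, and such levels leave little to detect on this scale.

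**Figure D4:**
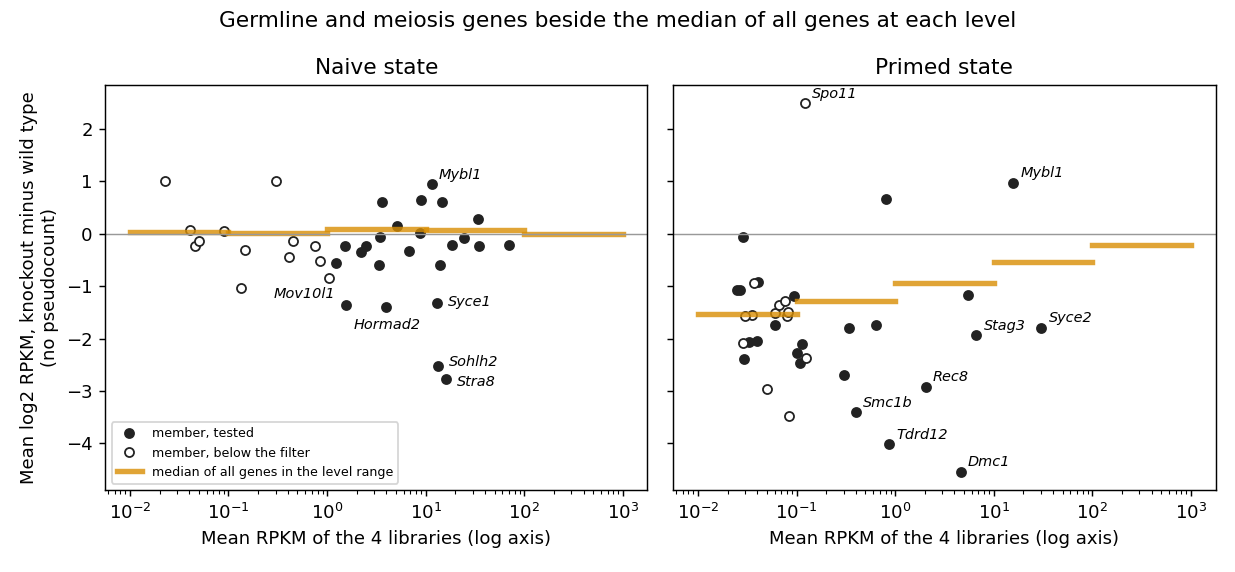
Difference of the group means of log2 RPKM, knockout minus wild type and with no pseudocount, against the mean RPKM of the 4 libraries of each state (log axis), for all 37 genes (filled: tested, open: below the filter), with horizontal lines for the median of all genes in each level range. In the primed panel the lines fall from -0.22 above 100 RPKM to -1.53 under 0.1 RPKM, Dmc1, Tdrd12, Smc1b and Rec8 lie below their line and Mybl1 and Spo11 above it; in the naive panel the lines lie near 0.

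The effects differed between the states for 11 of the 24 genes as deposited, beside 49.6% of all tested genes, and for 18 after quantile normalization, beside 64.5%. The difference, primed minus naive, was positive for Stra8 (2.30 ± 0.40, adjusted p = 1.6e-07), Sohlh2 (2.21 ± 0.40, adjusted p = 4.9e-07), Syce1 (1.14 ± 0.40, adjusted p = 0.012) and Hormad2 (0.91 ± 0.37, adjusted p = 0.033). These 4 were near 0 RPKM in all primed libraries, so their primed effect could not be large on this scale. It was negative for Dmc1 (-2.55 ± 0.40, adjusted p = 4.5e-09), Rec8 (-1.90 ± 0.33, adjusted p = 1.1e-07), Syce2 (-1.49 ± 0.19, adjusted p = 1.9e-13), Stag3 (-1.07 ± 0.32), Piwil2 (-1.06 ± 0.40), Tdrd12 (-1.04 ± 0.39) and Sycp1 (-0.99 ± 0.36). The median of this difference was -0.59 over all tested genes, and the count called ran from 5 without naive knockout replicate 1 to 15 without naive wild-type replicate 1. For Mybl1 it was 0.054 ± 0.27 (adjusted p = 0.88) as deposited and 0.80 and called after quantile normalization.

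Among the 13 genes below the filter, naive values ran from 0.00205 RPKM (Tdrd6) to 1.93 RPKM (Mael) and primed values from 0.0104 RPKM (Mei1) to 0.274 RPKM (Tdrd9). These were the oocyte and spermatogonial factors Sohlh1, Figla and Nobox, the piRNA genes Mael, Tdrd1, Tdrd6, Tdrd9, Piwil1 and Piwil4, and Sycp2, Spo11, Mei1 and Tex101. Piwil4 overlaps an antisense gene, so its low values are uncertain. Mael, a piRNA factor, was at 0.708 and 0.716 RPKM in naive knockout and at 1.93 and 0.859 RPKM in wild type. Spo11, the enzyme that cuts DNA to begin meiotic recombination, was picked out after its values were seen. It stood at 0.225 and 0.182 RPKM in primed knockout against 0.0261 and 0.0501 RPKM, 5.35-fold higher, all under 1 RPKM. When the filter was dropped it was called (0.21 ± 0.052 on the log2(RPKM + 1) scale, adjusted p = 0.0017), and of the other 12 only Nobox was then called in the primed state, lower (-0.19 ± 0.070, adjusted p = 0.035).

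Of a further list of 55 germline and meiosis genes, 35 were tested. In the naive state 5 were lower and 0 higher (median -0.065), beside 5.85% and 6.08% of all tested genes. Rnf17, a tudor protein of spermatids, stood at 5.06 and 4.97 RPKM against 23.2 and 19.9 RPKM (-1.90 ± 0.28, adjusted p = 1.6e-09). Gtsf1, a partner of PIWI proteins, stood at 3.42 and 2.88 against 9.35 and 6.32 RPKM (-1.07 ± 0.27, adjusted p = 0.0015), a call that ended in 3 of 17 alternative settings, among them without naive knockout replicate 2 (adjusted p = 0.15) and with no filter (0.074). In the primed state the median was -0.51, close to that of all genes. There 18 were lower and 0 higher, beside 59.3% and 4.16% of all tested genes. The largest were Tdrkh, a mitochondrial tudor protein of the piRNA pathway, at 4.25 and 3.86 RPKM against 26.0 and 31.7 RPKM (-2.55 ± 0.28, adjusted p = 3.5e-18), and Ybx2, a germ-cell mRNA-binding protein, at 6.41 and 5.34 against 34.9 and 43.2 RPKM (-2.54 ± 0.23, adjusted p = 3.8e-26). After quantile normalization the counts lower and higher were 17 and 7 in the naive and 18 and 5 in the primed state. The shares of all tested genes were 27.2% and 32.0% in the naive and 35.1% and 39.0% in the primed state.

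Of 12 tested genes of primordial germ cells, the precursors of sperm and eggs, each state had 2 lower and 1 higher as deposited. Of all tested genes 5.85% were lower and 6.08% higher in the naive state as deposited, and 59.3% and 4.16% in the primed state. After quantile normalization 5 were lower and 4 higher in the naive state, beside 27.2% and 32.0% of all genes. In the primed state 2 were then lower and 5 higher, beside 35.1% and 39.0%. In the naive state Nanos3, an RNA-binding survival factor, stood at 2.59 and 2.02 against 6.64 and 4.11 RPKM (-0.93 ± 0.27, adjusted p = 0.0083) and Ifitm1 at 18.3 and 17.6 against 33.6 and 32.6 RPKM (-0.85 ± 0.25, adjusted p = 0.01). The calls ended in 7 of 16 settings for Nanos3 and 4 of 17 for Ifitm1, among them without naive knockout replicate 1 (adjusted p = 0.1 and 0.26) or replicate 2 (0.34 and 0.32). Ifitm3, an interferon-inducible membrane protein, rose in both states, from 125 and 138 to 196 and 190 RPKM in naive cells (0.55 ± 0.11) and from 12.3 and 12.1 to 21.4 and 19.6 RPKM in primed cells (0.70 ± 0.11). In the primed state Kit, the receptor of stem cell factor, fell by 1.24 and Alpl, an alkaline phosphatase, by 0.96 on the log2 scale. The list's medians were -0.029 and -0.12.

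A list of 27 genes held PRC1.6 genes, other repressors of germline genes and the DNA demethylases Tet1 and Tet2. In naive knockout 3 were lower and 3 higher (median 0.090), beside 5.85% and 6.08% of all tested genes. After quantile normalization these counts were 7 and 12, beside 27.2% and 32.0%. Values below are as deposited unless stated. The deacetylase Hdac1 stood at 54.6 and 55.0 against 74.1 and 80.3 RPKM (-0.49 ± 0.11, adjusted p = 0.0001), and the histone demethylase Kdm5c at 19.3 and 18.9 against 28.6 and 25.0 RPKM (-0.47 ± 0.15, adjusted p = 0.024). Dnmt3l, the cofactor of the de novo DNA methyltransferases, stood at 49.0 and 48.2 against 28.8 and 25.9 RPKM (0.81 ± 0.27, adjusted p = 0.024), and the DNA demethylase Tet1 at 47.8 and 49.2 against 32.6 and 31.0 RPKM (0.59 ± 0.15, adjusted p = 0.0012). The calls of Kdm5c, Dnmt3l and Tet1 ended in 7, 8 and 2 of 17 settings, among them without naive knockout replicate 1 (adjusted p = 0.31, 0.41 and 0.12) or replicate 2 (0.38, 0.38 and 0.18). In the primed state 17 were lower and 0 higher (median -0.40), beside 59.3% and 4.16% of all tested genes. After quantile normalization 8 fell and 15 rose there, beside 35.1% and 39.0%. Tet2 (-1.81 ± 0.23) and the PRC1.6 subunit L3mbtl2 (-1.26 ± 0.14) were the furthest down and were called under both scalings.

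Of 13 tested genes of the retinoic acid pathway, naive knockout had 2 lower and 0 higher (median -0.047). Over all tested genes 5.85% were lower and 6.08% higher. After quantile normalization 5 of the 13 were lower and 3 higher in the naive state, beside 27.2% and 32.0% of all genes. Dhrs3, a retinaldehyde reductase, stood at 2.23 and 1.65 RPKM against 5.37 and 3.88 RPKM (-0.93 ± 0.28, adjusted p = 0.011), and Crabp1, a retinoic acid-binding protein, at 12.9 and 11.6 against 24.5 and 22.0 RPKM (-0.87 ± 0.23, adjusted p = 0.003). These calls ended in 7 of 17 settings for Dhrs3 and 2 for Crabp1, among them without naive knockout replicate 1 (adjusted p = 0.12 and 0.11) or replicate 2 (0.4 and 0.25). Both also fell in the primed state, Crabp1 by 1.85 and Dhrs3 by 1.55 on the log2 scale, where 9 genes fell and 1 rose, beside 59.3% and 4.16% of all tested genes. After quantile normalization 6 were lower and 4 higher there, beside 35.1% and 39.0% of all genes. The gene that rose was the receptor Rxrg, at 14.4 and 12.9 RPKM against 3.27 and 4.88 RPKM (1.55 ± 0.28, adjusted p = 1.6e-07).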

How the data were processed

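RPKM values were deposited by the authors for 24505 genes in each of 8 libraries. Per the submitters' processing notes, cutadapt 1.9, STAR 2.5.2b, featureCounts 1.5.1 and affy were used with build mm9; their order, parameters and strand setting are not given in the sources used here. Per the labels' protocols, lysates received ERCC spike-in RNA and ribosomal RNA was removed; the files hold 0 spike-in rows. The RPKM as deposited carry a further scaling that is not described. No value is 0, and the states may have been scaled apart. Depth cannot be had from such values.

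Values were taken as log2(RPKM + 1), which understates changes of genes near or under 1 RPKM, so ratios of mean RPKM are given beside them. The test covered the 13428 genes that reached 1 RPKM in 2 or more libraries. The 4 group means were fitted with limma 3.58.1 (R 4.3.3) with an intensity trend, with Benjamini-Hochberg adjustment across the tested genes of each comparison and a threshold of 0.05. As deposited, limma set the prior degrees of freedom to infinity beside 4 residual ones, so each gene took its variance from the trend (median residual SD 0.179). After quantile normalization they were 3.72 and 0.0477. Alternatives were a pseudocount of 0.1, no filter or one of 5 RPKM, 3 other scalings, each state alone, no variance trend, the replicate block and leaving out each library. Figures were drawn with matplotlib 3.10.9.

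The 37 genes, the context lists and the rule for naming genes were chosen with earlier results of these data known. The rule names Ino80. It gives values in every library for genes called in either state as deposited or in the naive state after quantile normalization, or with a group mean of at least 5 RPKM. Other genes are given by range. From each context list it names up to 2 called genes per direction and comparison. Exon overlaps were read from GENCODE vM21 and no coordinates of the mm9 files were used.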

Additional observations from a re-analysis of the deposited data

Results flagged for a closer look

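The knockout effect differed between primed and naive cells, by the test of the difference itself, for 11 of the 24 tested genes. The primed minus naive difference of log2(RPKM + 1) effects was -2.55 for Dmc1, -1.90 for Rec8, -1.49 for Syce2, -1.07 for Stag3, -1.06 for Piwil2, -1.04 for Tdrd12 and -0.99 for Sycp1. It was 0.91 for Hormad2, 1.14 for Syce1, 2.21 for Sohlh2 and 2.30 for Stra8. Over all tested genes 49.6% passed the same test as deposited, with a median of -0.59. After quantile normalization the difference for Sycp1 was -0.14 and did not pass (limma adjusted p = 0.14), and the other 10 passed with the same sign. With median centring Sycp1 and Piwil2 did not pass (limma adjusted p = 0.066 and 0.078). With no filter Hormad2, Piwil2, Syce1 and Tdrd12 did not (adjusted p = 0.14, 0.12, 0.11 and 0.064). With the replicate block 7 genes were called in this difference.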

How the results depend on the processing

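Of the named genes, Stra8 and Sohlh2 in the naive state and Dmc1, Rec8, Stag3, Syce2, Sycp1, Tdrd12 and Mybl1 in the primed state kept their direction and their call in all 17 alternative settings. The number called lower in the naive state, 5 as deposited, was 3 with a pseudocount of 0.1, 3 with a filter of 5 RPKM, 9 with median centring, 14 after quantile normalization and 14 after loess normalization, and 3 to 7 when 1 library was left out. The number called higher there, 1 as deposited, was 4, 5 and 5 with those 3 scalings, 3 with each state alone and 0 to 4 when 1 library was left out. The number called higher in the primed state, 1 as deposited, was 2 with no filter, 15 with median centring, 2 after quantile normalization and 2 after loess normalization. The number called in the difference of effects, 11 as deposited, was 18, 18 and 19 with median centring, quantile and loess normalization, and 5 to 15 when 1 library was left out. Hormad2 and Mov10l1 did not pass the filter of 5 RPKM, so they were not tested there. The cause of the other changes was not tested.

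Signs turned for small naive differences that were not called and, with median centring, for larger primed ones. The naive difference of Sycp1, 0.017 as deposited, was -0.039 with median centring, -0.052 after quantile and -0.074 after loess normalization. When 1 library was left out, naive differences ran from -0.18 to 0.21 for Sycp1, from -0.084 to 0.32 for Ddx4, from -0.44 to 0.13 for Smc1b, from -0.67 to 0.16 for Dmc1, from -0.52 to 0.16 for Tex11 and from -0.13 to 0.086 for Ino80. With median centring the primed differences of Ddx4, Piwil2 and Smc1b were 0.072, 0.21 and 0.0097. As deposited they were -0.62, -0.49 and -0.68, and those of Ddx4 and Smc1b were called. A group left with 1 library is assumed to vary like the others.

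With the replicate block the number called in the difference of effects was 7, and the numbers in the naive state were 5 lower and 1 higher and in the primed state 7 lower and 1 higher. Deviations of same-numbered libraries correlated at 0.314 between the naive groups, at -0.0356 between the primed groups and at -0.312 between naive and primed wild type. The labels give no shared culture or day for a number, and the values do not pair the libraries throughout, so the fit without the block was kept. The depth is unknown, and values under 1 RPKM limit what the primed state can show.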
